A study of Mus musculus with 8 samples.

Results

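The report concerns 10 genes of the endothelial cell surface and cell border, Pecam1, Mcam, Cdh5, Esam, Cldn5, Jam2, Jam3, F11r, Tjp1 and Ocln, in endothelial cells sorted from mouse liver. Pecam1 and Mcam encode CD31 and CD146, the surface proteins by which the cells were sorted, and the other 8 encode proteins of adherens and tight junctions. The genes were taken by name from the deposited annotation. Each was the single symbol of 1 probe set, so the 10 genes rest on 10 probe sets, of 21160 genes measured.

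RNA was measured on 8 Affymetrix arrays, 4 of YFP+ and 4 of YFP- cells. Both groups came from wild-type C57BL\6N recipients that were irradiated at 8 weeks of age with 9 Gy, given as 2 doses of 4.5 Gy, and then received 5000 YFP-labelled LSK cells, a marrow fraction rich in blood-forming stem and progenitor cells. Livers were taken after 1 month, and cells with CD31 and CD146 but without CD45, the surface protein of leukocytes, were sorted, so that the gate required both sort marker proteins in both groups. YFP+ cells, which the labels call bone marrow-derived, carried the donor label, and YFP- cells, called resident, did not. Donor origin was thus read from YFP alone, and no source used here names the promoter that drives YFP. The labels name 4 biological replicates in each group but not whether 2 sorts came from 1 mouse.

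Endothelial cells are held together at their borders by several kinds of adhesion protein. VE-cadherin, the product of Cdh5, forms the adherens junction, claudins and occludin form the strands of the tight junction, the immunoglobulin-like JAM proteins and ESAM sit beside them, and ZO-1, the product of Tjp1, ties these proteins to actin. The sinusoids of the liver are lined by an endothelium that is perforated by fenestrae, with no continuous basement membrane, and its junctions are less elaborate than those of most other vessels.

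The labelled cell type was checked against marker genes. A probe set is called bright below when its intensity exceeded the 95th percentile of the negative control probe sets of the same array. Of 18 endothelial genes other than the 10, 14 were bright on all 8 arrays, as were 10 of 13 genes of liver sinusoidal endothelium, so both groups carried endothelial transcripts. YFP+ arrays also had higher means for genes typical of other cell types. Whether the sorted cells themselves or other cells in the sort held this RNA was not tested. The mean of 14 leukocyte genes was 8.20 to 9.93 log2 in YFP+ cells and 7.05 to 7.35 log2 in YFP- cells. For 10 platelet genes it was 8.34 to 8.58 log2 in YFP+ cells and 7.36 to 7.42 log2 in YFP- cells, and for 10 bile duct genes 8.79 to 9.48 log2 in YFP+ cells and 7.79 to 8.28 log2 in YFP- cells. YFP+ replicate 3 stood apart from the other arrays on the second principal component, at 55.4 against -18.3 to 3.04.

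Of the 10 genes, 9 had lower mean levels in YFP+ than in YFP- cells, by 1.11 to 1.55 fold, where 49.6% of all genes had a lower mean, and Ocln, whose signal lay near background, had a higher one, by 1.60 fold. None of these differences passed the test across all genes (limma, Benjamini-Hochberg adjusted p between 0.14 and 0.753), where 1.61% of the 21160 genes did. At an unadjusted p under 0.05, limma gave 7 of the 10 genes, against 13.5% of all genes. The YFP+ and YFP- arrays did not overlap for 4 of the 10 genes, namely Pecam1, Cdh5 and Jam2, which were lower, and Ocln, which was higher, against 8.62% of all genes (3.82% lower and 4.8% higher). The median difference of the 10 genes was -0.28 on the log2 scale, against 0.00 for all genes (0.00189). Shares of all genes, here and below, count dim genes too, unless these are said to be left out. With dim genes left out, 3149 genes remained, 8 of the 10 among them. The median difference of the 3149 was -0.07. Of them, 3.18% passed the test as higher and 3.59% as lower, and none of the 8 did. The shares for unadjusted p and for overlap are given for all genes only. A lower level could mean fewer endothelial cells in the sort or less RNA of the gene in each cell, and these cannot be told apart in bulk RNA.

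**Figure D1:**
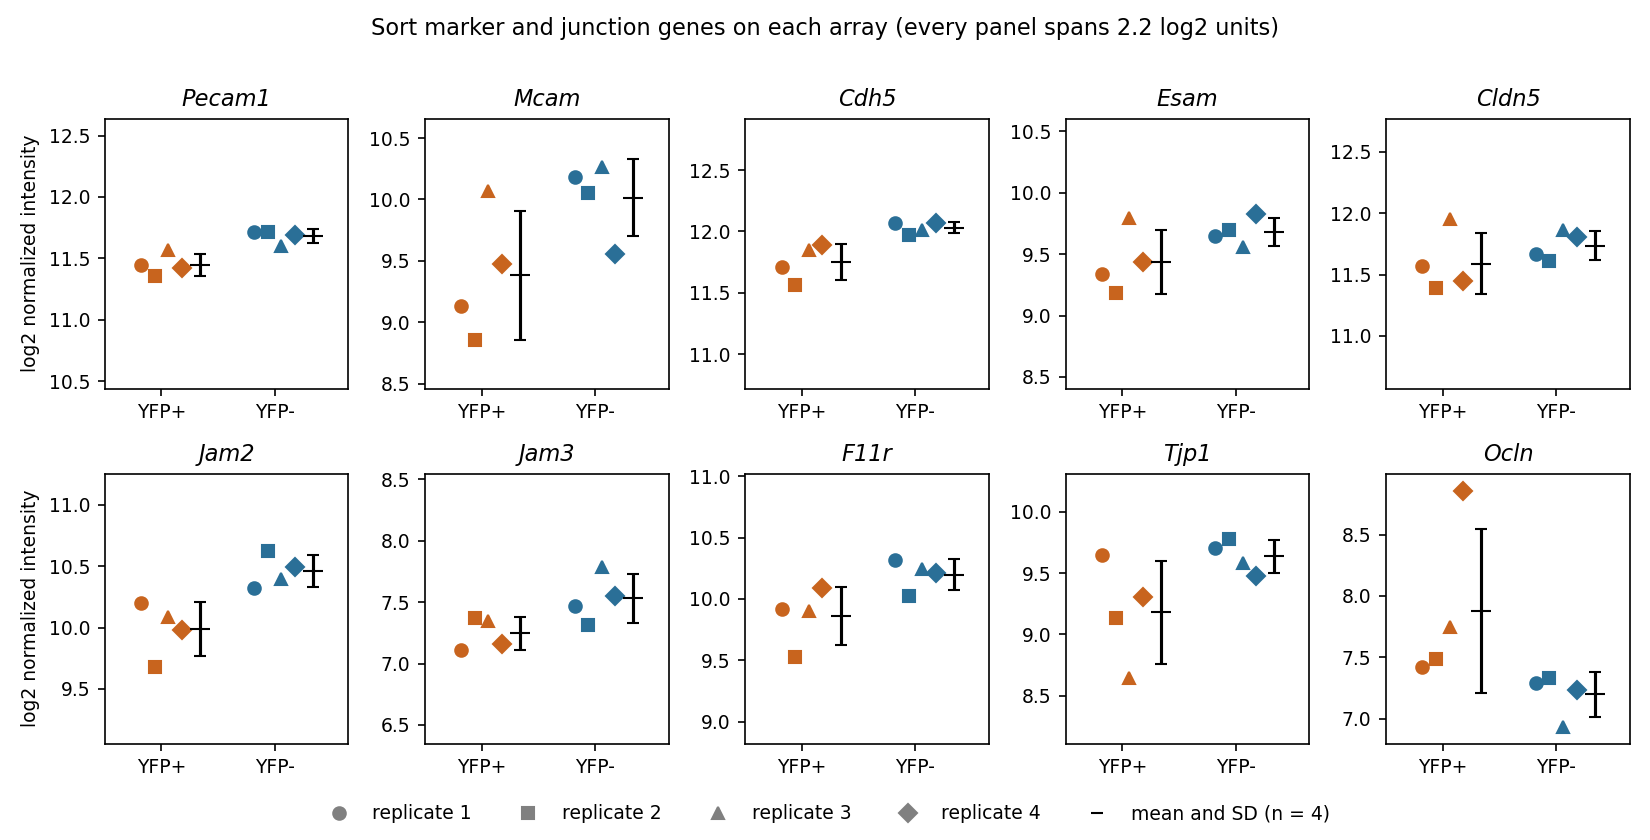
Log2 normalized intensity of the 10 genes on each array, YFP+ at the left and YFP- at the right of each panel. Points are single arrays, with the replicate number as the symbol, and bars are the mean and SD of 4 arrays. All panels have the same height in log2 units but their own position, since levels of different probe sets cannot be compared. The groups are apart for Pecam1, Cdh5, Jam2 and Ocln and overlap for the other 6 genes.

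For 5 of the 10 genes, Mcam, Cldn5, F11r, Tjp1 and Ocln, the RefSeq table of promoter windows (build GRCm38.p6, 250 bases before to 50 after the transcription start) held an entry. Shown here are the windows of Mcam, with the most negative difference of the 10 genes on the deposited values, of Cldn5, with the least negative, and of Ocln, with the positive one. Each is written 5′ to 3′ on the strand of its gene, and capitals mark matches to a GC box (GGGCGG) or an ETS core (CCGGAA) on either strand.
Mcam, chr9:44134408-44134707, plus strand: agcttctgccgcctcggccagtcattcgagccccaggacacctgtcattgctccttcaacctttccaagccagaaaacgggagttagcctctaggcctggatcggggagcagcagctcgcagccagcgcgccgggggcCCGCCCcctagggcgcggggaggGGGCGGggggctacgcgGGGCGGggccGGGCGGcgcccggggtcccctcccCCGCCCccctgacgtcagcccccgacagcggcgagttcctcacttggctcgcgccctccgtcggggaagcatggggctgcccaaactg
Cldn5, chr16:18776597-18776896, plus strand: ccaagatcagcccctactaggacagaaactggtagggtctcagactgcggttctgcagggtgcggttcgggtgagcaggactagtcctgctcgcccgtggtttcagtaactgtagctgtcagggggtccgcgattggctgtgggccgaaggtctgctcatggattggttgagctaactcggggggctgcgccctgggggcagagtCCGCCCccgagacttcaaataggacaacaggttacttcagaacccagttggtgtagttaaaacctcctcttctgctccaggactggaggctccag
Ocln, chr13:100552669-100552968, minus strand: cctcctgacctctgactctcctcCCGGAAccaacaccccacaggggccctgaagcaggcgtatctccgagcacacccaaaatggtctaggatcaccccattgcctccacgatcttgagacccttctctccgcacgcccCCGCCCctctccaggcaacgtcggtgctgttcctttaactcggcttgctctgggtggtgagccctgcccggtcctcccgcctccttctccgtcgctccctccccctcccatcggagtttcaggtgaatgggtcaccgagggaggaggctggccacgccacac
The Mcam window held 5 GC boxes, Cldn5 1, F11r 1, Tjp1 2 and each of the 2 overlapping Ocln windows 1. Of all 32851 windows of this length, 35.7% held a GC box. The ETS core was found only in the Ocln window shown, once, and in 14.9% of all windows. An E-box (CACGTG, in 7.15% of all windows) and a TATA box (TATAAA, in 13.6%) were in none of the 6 windows. No 2 matches overlapped. GC content was 72.7% for Mcam, 58.3% for Cldn5 and 64.0% for the Ocln window shown, against a median of 52.7% for all windows. These matches describe the letters of the windows, and the arrays hold no measurement of binding.

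Both sort marker genes had lower means in YFP+ cells, and neither passed the test. Pecam1 encodes CD31, an adhesion receptor that binds its like on the neighbouring cell and is also found on platelets and many leukocytes. Its log2 level was 11.44, 11.36, 11.57 and 11.42 in YFP+ replicates 1 to 4, against 11.71, 11.72, 11.60 and 11.69 in YFP- replicates 1 to 4. Every YFP+ array lay below every YFP- array, by little: the highest YFP+ and the lowest YFP- value differed by less than the SD of either group (0.09 and 0.05). Means were 11.45 ± 0.09 over YFP+ and 11.68 ± 0.05 over YFP- arrays (SD, 4 arrays each), a log2 difference of -0.23 (SE 0.10, limma adjusted p = 0.367). In the authors' deposited table the YFP+ mean divided by the YFP- mean gave 0.852 with an unadjusted p of 0.00381, from a test that is not named. That p was the lowest of the 10 genes there. The authors' unadjusted p was over 0.05 for Mcam (0.0849), Tjp1 (0.0709) and Ocln (0.168), whose unadjusted limma p was under 0.05.

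Mcam, the gene of CD146, an adhesion molecule of endothelium, pericytes and smooth muscle, had the most negative difference of the 10 genes on the deposited values of all arrays and, after Ocln, the largest SD over the YFP+ arrays. Its log2 level was 9.13, 8.85, 10.07 and 9.48 in YFP+ replicates 1 to 4, against 10.18, 10.06, 10.26 and 9.56 in YFP- replicates 1 to 4. YFP+ replicate 3 lay within the YFP- range, and YFP- replicate 4 lay close to YFP+ replicate 4. It averaged 9.38 ± 0.52 over YFP+ and 10.02 ± 0.32 over YFP- arrays (SD, 4 arrays each), a log2 difference of -0.63 (SE 0.25, 95% interval -1.20 to -0.07, limma adjusted p = 0.297). Without YFP+ replicate 3 the difference was -0.86, and without YFP+ replicate 2 it was -0.46. CD146 is also carried by pericytes and smooth muscle, and of 12 measured genes of those and of stellate cells 11, Pdgfrb, Acta2 and Des among them, were bright on no array. The other gene, Dcn, which encodes the matrix proteoglycan decorin, was bright on 3 YFP+ arrays and no YFP- array, with 9.90, 9.30, 7.99 and 10.54 log2 in YFP+ replicates 1 to 4, against 8.63, 8.20, 8.12 and 8.12 log2 in YFP- replicates 1 to 4 (difference 1.17, limma adjusted p = 0.258). A gene that is not bright can still be expressed, and the part of RNA from such cells in the Mcam level was not tested. Within arrays, the log2 level of Mcam minus that of Pecam1 was -2.07 ± 0.44 on YFP+ and -1.67 ± 0.34 on YFP- arrays (SD, n = 4), and this change did not pass an exact two-sided permutation test (difference -0.40, p = 0.229, the smallest possible being 0.0286).

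Ptprc encodes CD45, by whose absence the cells were sorted. Its transcript stood at 9.06, 10.08, 7.22 and 8.82 log2 in YFP+ replicates 1 to 4, against 7.41, 7.29, 6.79 and 7.64 log2 in YFP- replicates 1 to 4. It was high on YFP+ replicates 1, 2 and 4 and at the YFP- level on replicate 3. Other leukocyte genes were not all at the YFP- level there. For 8 of the 14, every YFP+ array lay above every YFP- array, against 4.8% of all genes. Laptm5, 1 of these, stood at 10.24 log2 on YFP+ replicate 3, against 6.79 to 7.30 log2 on YFP- arrays. For the rest, Ptprc among them, the groups overlapped. The Ptprc difference of 1.51 had a limma adjusted p of 0.181, and without YFP+ replicate 3 it was 2.03 with a limma adjusted p of 0.00758. That array held the lowest YFP+ value of Ptprc, so leaving it out raises the difference by construction.

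Cdh5 encodes VE-cadherin, the adhesion protein of the endothelial adherens junction. VE-cadherin transcripts stood at a log2 level of 11.71, 11.56, 11.85 and 11.89 in YFP+ replicates 1 to 4, against 12.07, 11.97, 12.02 and 12.07 in YFP- replicates 1 to 4. The groups did not overlap, and the YFP- arrays were nearly equal. Averages were 11.75 ± 0.15 over YFP+ and 12.03 ± 0.05 over YFP- arrays (SD, 4 arrays each), a log2 difference of -0.28 (95% interval -0.53 to -0.03, limma adjusted p = 0.303).

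Among the immunoglobulin-like proteins beside the tight junction, Jam2 came closest to the threshold of all 10 genes. Jam2 encodes JAM-B, which binds JAM-C on other cells. On the log2 scale it stood at 10.20, 9.68, 10.08 and 9.98 in YFP+ replicates 1 to 4, against 10.33, 10.63, 10.39 and 10.50 in YFP- replicates 1 to 4. The groups did not overlap, and YFP+ replicate 2 was lowest. It averaged 9.99 ± 0.22 over YFP+ and 10.46 ± 0.13 over YFP- arrays (SD, 4 arrays each), a log2 difference of -0.47 (SE 0.14, 95% interval -0.78 to -0.17, limma adjusted p = 0.14).

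Jam3, F11r and Esam overlapped between the groups. Jam3, the gene of JAM-C, was bright on no array and above the median of the negative controls on all 8, and its level was 7.11, 7.37, 7.35 and 7.16 log2 in YFP+ replicates 1 to 4, against 7.47, 7.31, 7.79 and 7.55 log2 in YFP- replicates 1 to 4. At this signal its difference of -0.28 (limma adjusted p = 0.393) is limited by background, and after subtraction of each array's median negative control it was -0.54 (limma adjusted p = 0.779). F11r encodes JAM-A, which is found on endothelium, epithelia, platelets and leukocytes. F11r stood at 9.91, 9.53, 9.90 and 10.09 log2 in YFP+ replicates 1 to 4, against 10.32, 10.03, 10.24 and 10.21 log2 in YFP- replicates 1 to 4, with only YFP+ replicate 4 inside the YFP- range. Its difference was -0.34 (95% interval -0.65 to -0.03, limma adjusted p = 0.319), and -0.20 without YFP+ replicates 2 and 3. Esam encodes an adhesion molecule of endothelial cells and platelets. Esam stood at 9.33, 9.18, 9.80 and 9.43 log2 in YFP+ replicates 1 to 4, against 9.65, 9.70, 9.56 and 9.83 log2 in YFP- replicates 1 to 4, a difference of -0.25 (95% interval -0.57 to 0.08, limma adjusted p = 0.536), which was -0.16 without YFP+ replicate 2.

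The tight junction strand proteins are represented by claudin-5 and occludin. Cldn5 encodes the main claudin of endothelial cells. Cldn5 had a log2 level of 11.57, 11.39, 11.95 and 11.45 in YFP+ replicates 1 to 4, against 11.67, 11.61, 11.86 and 11.80 in YFP- replicates 1 to 4. YFP+ replicate 3 was the highest of all 8 arrays and the other 3 YFP+ arrays the lowest. The difference was -0.15 (limma adjusted p = 0.753), with a 95% interval of -0.47 to 0.17, or 0.724-fold to 1.13-fold. Single arrays moved it: it was -0.27 without YFP+ replicate 3 and -0.08 without YFP+ replicate 2, and with cyclic loess normalization it was -0.07.

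Ocln encodes occludin, a membrane protein of tight junctions of epithelia and of tight endothelial barriers. Ocln had a log2 level of 7.42, 7.49, 7.75 and 8.86 in YFP+ replicates 1 to 4, against 7.29, 7.33, 6.93 and 7.23 in YFP- replicates 1 to 4. The groups did not overlap, but replicates 1 and 2 of YFP+ cells lay just above the YFP- arrays, and only replicate 4 was bright. It averaged 7.88 ± 0.67 over YFP+ and 7.20 ± 0.18 over YFP- arrays (SD, 4 arrays each), a log2 difference of 0.68 (95% interval 0.05 to 1.31, limma adjusted p = 0.319). Without YFP+ replicate 4 it was 0.36. After subtraction of each array's median negative control, with results under 16 set to 16, it was 2.07 (limma adjusted p = 0.235). On YFP- replicate 3 the Ocln intensity (122.3) lay below that median (122.6) and was set to 16. The size of the Ocln difference thus depends on how background is treated and on this floor. Markers of other cell types also had higher means in YFP+ cells. This held for all 10 bile duct genes, 6 of which passed the test. It also held for all 14 leukocyte and all 10 platelet genes, of which 6 and 4 passed. All 13 hepatocyte genes had higher means and 3 of them passed. Of all genes, 1.27% were called higher. The bile duct mean was 9.48, 8.79, 8.94 and 9.40 log2 in YFP+ replicates 1 to 4, against 8.28, 7.88, 7.79 and 7.97 log2 in YFP- replicates 1 to 4. It was high on replicate 4, where Ocln was highest, and as high on replicate 1, where Ocln was the lowest of the YFP+ arrays. Of the bile duct genes, Krt19, Epcam, Sox9 and Cftr were bright on no array, as were 9 of the 13 hepatocyte genes. The part of epithelial RNA in the Ocln difference was not tested.

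Tjp1 encodes ZO-1, the scaffold under the tight junction. Tjp1 had a log2 level of 9.65, 9.13, 8.64 and 9.31 in YFP+ replicates 1 to 4, against 9.70, 9.78, 9.59 and 9.48 in YFP- replicates 1 to 4. YFP+ replicate 1 lay within the YFP- range, and replicate 3 was the lowest array by far. The difference was -0.45 (SE 0.19, 95% interval -0.89 to -0.02, limma adjusted p = 0.337), -0.27 when YFP+ replicate 3 was left out and -0.16 when replicates 2 and 3 both were.

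The 10 genes differed in which YFP+ array was lowest or highest. YFP+ replicate 2, which had the highest leukocyte mean (9.93 log2), was the lowest YFP+ array for 7 of the 10 genes. YFP+ replicate 3, with the lowest leukocyte mean of that group (8.20 log2), was the highest for 4 of them, Pecam1, Mcam, Esam and Cldn5, and the lowest for Tjp1. The SD over the 4 arrays was larger in YFP+ than in YFP- cells for 9 of the 10 genes, with Jam3 as the exception. The median SD of the 10 genes was 0.245 in YFP+ and 0.128 in YFP- cells, and that of all genes 0.234 in YFP+ and 0.169 in YFP- cells. Whether the leukocyte RNA on an array bears on these levels was not tested.

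Apart from Ocln, the 10 genes had differences within the range of those of 18 other endothelial genes, -0.73 (Tek, an angiopoietin receptor) to -0.00298 (Fli1, an ETS transcription factor). The mean of the 18 endothelial genes outside the 10 was 10.32, 9.98, 10.35 and 10.14 log2 in YFP+ replicates 1 to 4, against 10.52, 10.52, 10.51 and 10.59 log2 in YFP- replicates 1 to 4. All 18 had lower means in YFP+ cells (median difference -0.37), 11 of the 18 did not overlap between groups, against 3.82% of all genes that were lower in YFP+ cells without overlap, and 1, Tek, fell (limma adjusted p = 0.0224). When each array was set to its mean over these 18 genes, the difference of every gene rose by the same 0.342, the gap between the group means of the list. On this scale the 9 genes other than Ocln had differences between -0.29 (Mcam) and 0.20 (Cldn5), and none of the 9 passed the test (limma adjusted p from 0.265 for Cldn5 to 0.992 for F11r). Ocln stood at 1.02 log2 (limma adjusted p = 0.0407), so 1 of the 10 genes was called higher, against 15.9% of all genes on the same scale.

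**Figure D2:**
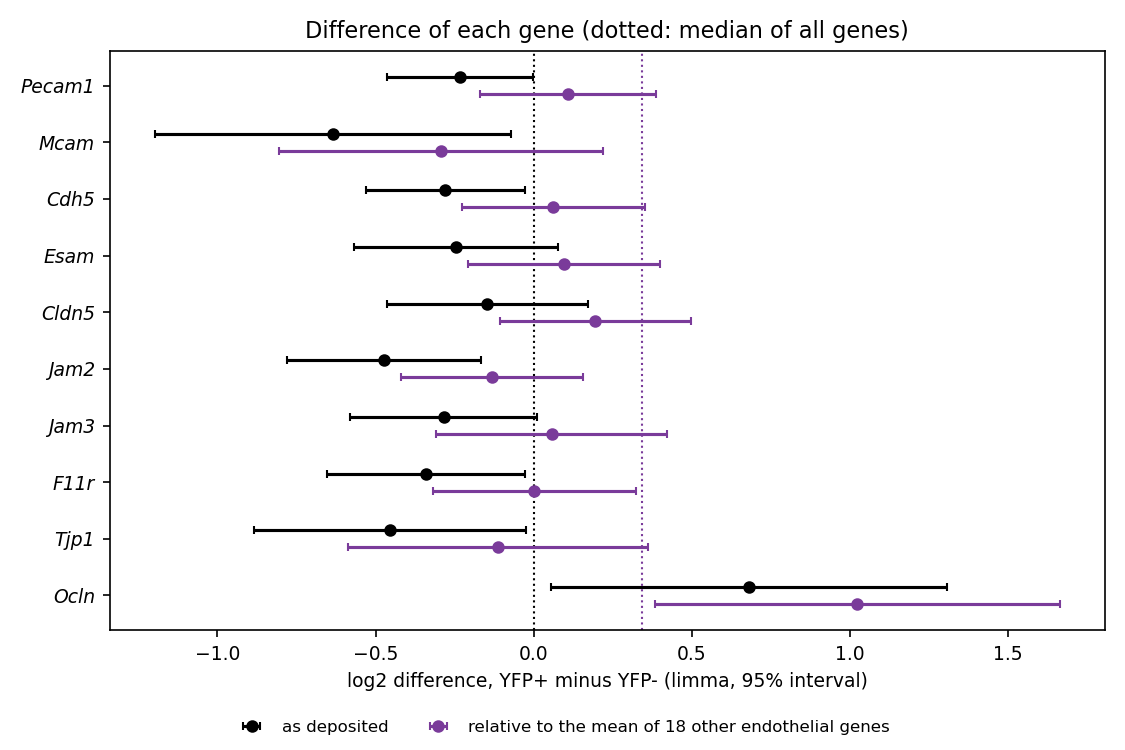
Log2 difference between YFP+ and YFP- cells for each of the 10 genes (points) with limma's 95% interval (bars), from values as deposited (black) and after each array was set to its mean over 18 other endothelial genes (purple). Dotted lines mark the median of all genes on each scale, 0.00189 and 0.344. On the second scale all points lie 0.342 further to the right, 9 genes at -0.29 to 0.20 and Ocln at 1.02.

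**Figure D3:**
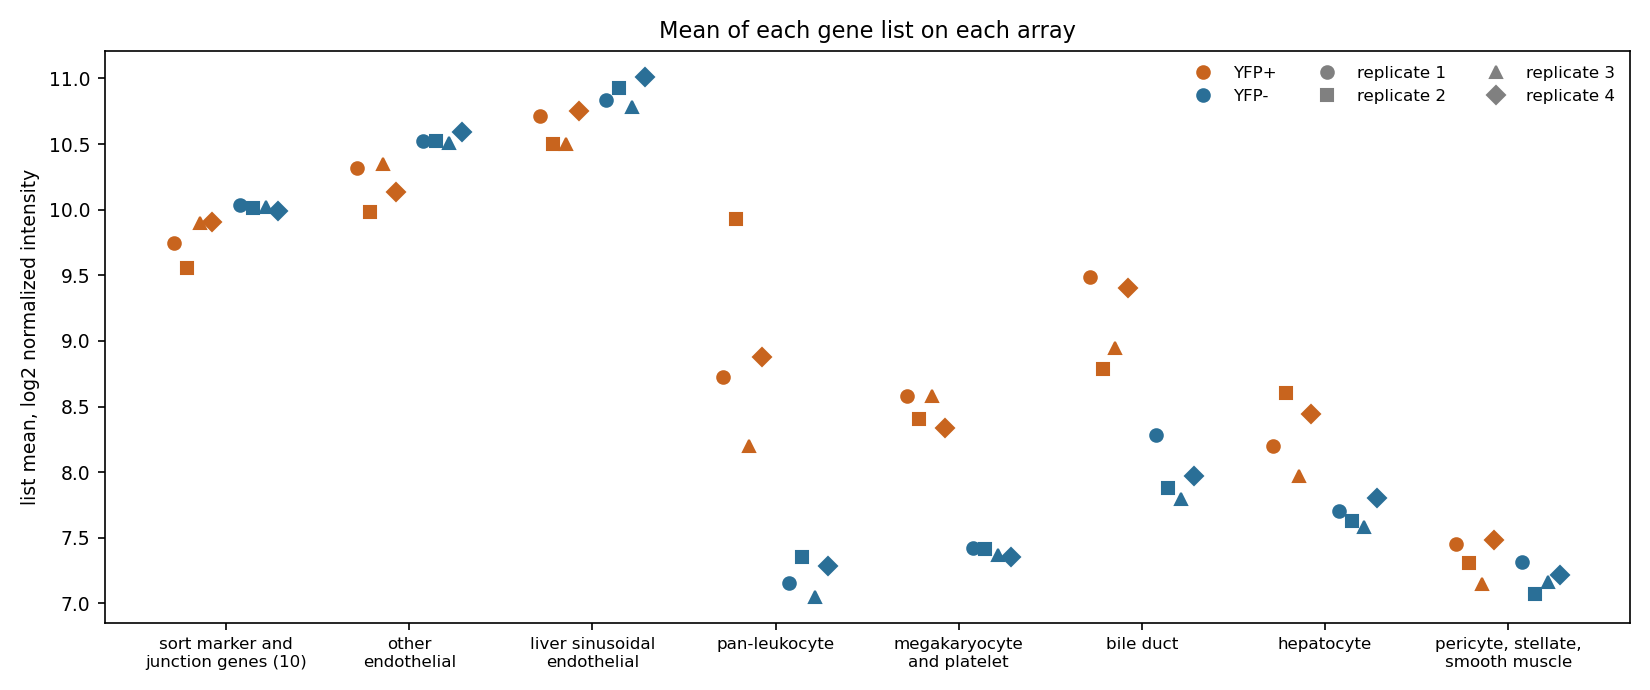
Mean log2 normalized intensity of each gene list on each array, YFP+ left of YFP- within each list, with the replicate number as the symbol. Levels can be compared between arrays within a list but not between lists. The 10 sort marker and junction genes averaged 9.55 to 9.91 on the YFP+ arrays, against 9.99 to 10.04 on the 4 others, and the leukocyte mean was highest on YFP+ replicate 2.

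Profiles over the 8 arrays were compared among genes that were bright on all arrays, 2013 besides the gene itself. Predicted genes (Gm numbers and Rik names), which this number includes, were passed over. The genes most like Pecam1, Mcam or Cdh5 were found by the root mean square distance between log2 profiles, each centred on its own mean. For Pecam1 these were Plxnd1 (distance 0.0468 log2), Rbms1 (0.0633) and Itga5 (0.0644). Plxnd1, which encodes a semaphorin receptor, stood at 11.88, 11.75, 12.10 and 11.91 log2 in YFP+ replicates 1 to 4, against 12.16, 12.09, 12.07 and 12.16 log2 in YFP- replicates 1 to 4. For Cdh5 they included Map4k3 (0.0557) and Dab2ip (0.0562). Distances for Mcam were larger: Bcar1, an adaptor of integrin signalling, lay at 0.198, the ephrin gene Efnb1 at 0.206 and Mast4 at 0.212. Like Mcam, Bcar1 was high on replicate 3 among the YFP+ arrays, with 9.20, 9.22, 10.26 and 9.36 log2 in replicates 1 to 4, against 9.98, 10.24, 10.24 and 9.92 log2 in YFP- replicates 1 to 4. Its difference was -0.59 (limma adjusted p = 0.272), and -0.84 without YFP+ replicate 3 (limma adjusted p = 0.00884). That array held its highest YFP+ value, so leaving it out makes the difference more negative by construction. Bcar1 was picked for a profile like that of Mcam, so its negative difference and high replicate 3 are no separate evidence.

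Of 84 other junction genes measured, in 6 lists, 3 passed the test, 1 higher and 2 lower in YFP+ cells, against 1.27% of all genes that were higher and 0.336% that were lower. Among the genes left when dim ones were removed, 2 of 39 junction genes were called higher and 3 lower, against 3.18% of all genes higher and 3.59% lower. After scaling to the endothelial mean, 16 of the 84 were called higher and 0 lower, against 15.9% of all genes higher. On the deposited values the median difference of the 84 was -0.01 (-0.00655), beside 0.00 for all genes, and 45 of the 84 had negative differences. The calls were not stable: that of Cldn7 ended in 7 of 17 alternative settings, and that of Ptprm in 12 and that of Rapgef3 in 13 of 18. With the replicate number as a block, none of these 3 genes was called.

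Among 15 adherens junction partners, Ptprm fell in YFP+ cells. It encodes a receptor tyrosine phosphatase that binds cadherin complexes. Ptprm had a log2 level of 9.75, 9.31, 8.99 and 9.87 in YFP+ replicates 1 to 4, against 10.27, 10.40, 10.40 and 10.37 in YFP- replicates 1 to 4, so that the groups were well apart. It averaged 9.48 ± 0.41 over YFP+ and 10.36 ± 0.06 over YFP- arrays (SD, 4 arrays each), a 1.84-fold fall (limma adjusted p = 0.0494). The call was lost without any single YFP- array (limma adjusted p = 0.116, 0.156, 0.126 and 0.139) and without YFP+ replicate 1 or 2 (0.0689 and 0.105), and without YFP+ replicates 2 and 3 the difference of -0.88 was -0.54 (limma adjusted p = 0.0562). Iqgap1, a scaffold that links cadherins to actin, had a difference of 0.60 (limma adjusted p = 0.0793, and 0.0397 with dim genes left out), with all YFP+ arrays above all YFP- arrays.

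Of the claudins and tricellular proteins, 16 of 19 had positive differences, with a median of 0.28, and 17 of the 19 were bright on no array. Cldn7, a claudin of epithelia, was higher in YFP+ cells: 9.71, 9.02, 8.43 and 9.05 log2 in YFP+ replicates 1 to 4, against 7.49, 7.86, 7.77 and 7.72 log2 in YFP- replicates 1 to 4. All YFP+ arrays lay above all YFP- arrays, and replicate 1, which had the highest bile duct mean (9.48 log2), was highest. Replicates 2 and 4 were nearly equal for Cldn7, though their bile duct means were 8.79 and 9.40 log2. Replicate 3, with a bile duct mean of 8.94 log2, had the lowest YFP+ level of Cldn7. The 2.53-fold rise passed the test (limma adjusted p = 0.0225), but not without YFP+ replicate 4 (0.0592) or any single YFP- array (0.0758, 0.0641, 0.0652 and 0.0727), and background subtraction gave a log2 difference of 2.31 with an adjusted p of 0.0537. Cldn8, a claudin of kidney and other epithelia, was bright on no array. Its difference was 0.95 (limma adjusted p = 0.198), and 2.45 after background subtraction (limma adjusted p = 0.284). Only 6 of the 8 arrays had Cldn8 above the median of the negative controls, so the 2.45 also depends on the floor of 16. Cldn8 passed without YFP+ replicates 2 and 3 (limma adjusted p = 0.00936), a setting chosen after seeing the data. Those arrays held its lowest YFP+ values (7.11 and 7.70 log2), so leaving them out raises the difference by construction. The 6 of 10 bile duct genes called higher over all arrays, against 1.27% of all genes, stand beside these values. The part of epithelial RNA in the claudin differences was not tested.

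**Figure D4:**
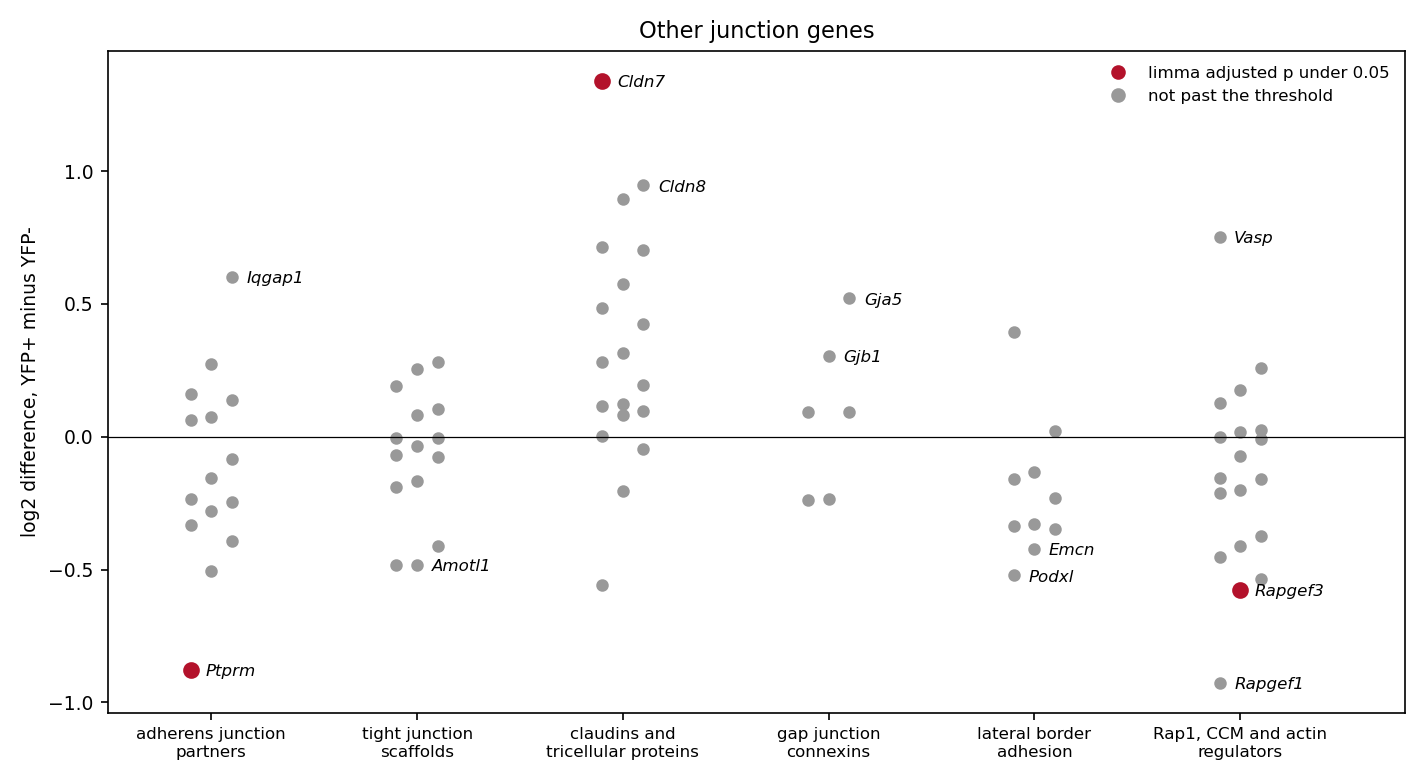
Log2 difference between YFP+ and YFP- cells of 84 other junction genes in 6 lists, each point 1 gene, red where limma's adjusted p was under 0.05. Named genes are those called and, of those with the largest difference in each list, the ones described here. Ptprm and Rapgef3 are called lower and Cldn7 higher, and most claudins lie above 0.

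Regulators of Rap1, the CCM complex and junctional actin held the other called gene. Rapgef3 encodes EPAC1, which activates Rap1 when it binds cyclic AMP and thereby tightens endothelial junctions. Rapgef3 stood at a log2 level of 9.19, 9.12, 9.51 and 9.16 in YFP+ replicates 1 to 4, against 9.79, 9.84, 9.77 and 9.88 in YFP- replicates 1 to 4. The groups were apart on every array, a 1.49-fold fall (limma adjusted p = 0.0468). The call was lost without each array in turn except YFP+ replicate 3 (limma adjusted p from 0.0941 to 0.148). Rapgef1, which encodes another activator of Rap1, had the larger difference of -0.93 and missed the threshold (limma adjusted p = 0.054); it passed without YFP+ replicate 3 (0.0443) and without YFP+ replicate 4 (0.0247). Vasp, an actin regulator that is abundant in platelets, had a difference of 0.75 (limma adjusted p = 0.0926, and 0.0446 with dim genes left out). Of the 19 genes in this list, 13 had lower means in YFP+ cells (median difference -0.16).

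The other 3 lists had no call. Tight junction scaffolds (15 genes) had a median of -0.04, and among them Amotl1, which encodes a scaffold of the angiomotin family, had a difference of -0.48 (limma adjusted p = 0.382), which was -0.24 when YFP+ replicate 4 was left out and -0.80 when replicates 2 and 3 both were. In the lateral border list, 8 of 10 genes had lower means in YFP+ cells (median difference -0.28). Its largest were those of the sialomucin genes Podxl (-0.52, limma adjusted p = 0.151) and Emcn (-0.42, limma adjusted p = 0.182), neither of which overlapped between the groups. Emcn is also 1 of the 18 endothelial genes above. The 6 connexin genes of gap junctions, 4 of them with positive differences, had a median of 0.09. Gja5, the gene of connexin 40 of arterial endothelium, had a difference of 0.52 (limma adjusted p = 0.563), which was 0.26 without YFP+ replicate 3 and 0.29 without YFP- replicate 4. Gjb1, that of the hepatocyte connexin 32, had a difference of 0.30 (limma adjusted p = 0.762), which ranged from -0.013 without YFP+ replicate 4 to 0.49 without YFP+ replicate 3.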

How the data were processed

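Per the labels' protocols, 100 pg of total RNA was amplified and biotin-labelled with the Affymetrix 3' IVT Pico kit. The deposited tables hold linear intensity values that the authors had normalized; quartiles were nearly equal on all 8 arrays, with medians of 159.9 to 165.2 for probe sets with 1 symbol. No source used here gives the array model, software, background correction or genome build. Per the file headers, the authors also deposited group means, their ratio (fold) and an unadjusted p-value.

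Values were log2 transformed without further normalization. Symbols came from the annotation column, updated through Entrez numbers with a RefSeq table (GRCm38.p6); of 22206 gene probe sets, 3 lacked a value and 21370 had 1 symbol, and the brightest per gene was kept. Groups were compared with limma 3.58.1 in R 4.3.3, unpaired, two-sided, adjusted over 21160 genes, with a threshold of 0.05. SDs are over 4 arrays, whose number limits the precision, and a p-value covers only the spread between these samples, which may be partly technical. Intensities hold background, so folds of dim genes are probably understated. Background subtraction, used as an alternative, took each array's median negative control from its intensities and set results under 16 to 16. The members and gene lists were chosen with earlier results of these data known. Genes named outside the 10 were, in each list of partners, those called and the 2 with the largest difference, the 3 most alike to Pecam1, Mcam and Cdh5, and markers; 2 genes that this rule names are not reported here, and stay in the counts. Python 3.11.15, numpy 2.4.6, pandas 2.3.3, scipy 1.17.1 and matplotlib 3.10.9 served for tables, the permutation test and plots.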

Additional observations from a re-analysis of the deposited data

Results flagged for a closer look

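Of 90 groups of 4 arrays checked for a single array far from the other 3 (genes named above and list means), 4 had a gap to the nearest array that took more of the group's range than Dixon's critical value at 95%, where chance gives about 1 in 20. Podxl had 1 YFP- array, replicate 1 at 10.28 log2, above the others at 9.84 to 9.90, with a gap of 0.855 of the range. Bcar1 had YFP+ replicate 3 at 10.26 log2 above the others at 9.20 to 9.36 (0.844). Mcam was high on the same array, and Bcar1 was picked for its likeness to Mcam. Mast4 had YFP- replicate 4 at 10.21 log2 below the others at 10.49 to 10.53 (0.885). The mean of the 18 endothelial genes was 10.59 log2 on YFP- replicate 4, above the other YFP- arrays at 10.51 to 10.52 (0.851). Among the 10 genes no array was flagged.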

How the results depend on the processing

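Of 18 alternatives, only endothelial scaling gave a call among the 10 genes, that of Ocln (1 gene). That scaling adds 0.342 to every difference, so that negative differences smaller than this become positive by construction (Pecam1 0.11, Cdh5 0.0619, Esam 0.10, Cldn5 0.20, Jam3 0.0573, F11r 0.0018, Plxnd1 0.13, Rbms1 0.0712, Itga5 0.13, Efnb1 0.0579, Map4k3 0.0613 and Dab2ip 0.0745). Gjb1 turned to -0.013 without YFP+ replicate 4, in a range up to 0.49 over single arrays left out. The count over all genes was 340; 269 of them higher and 71 lower; it was 3373 with endothelial scaling (3363 higher, 10 lower), 213 with dim genes left out (100 higher, 113 lower; fewer genes tested, Jam3 and Ocln not among them), 695 with array weights, 586 without YFP+ replicates 2 and 3 (chosen after seeing the data) and 115 to 636 without single arrays. The count over 84 partner genes was 3; it was 1 with quantile normalization, cyclic loess or background subtraction, 16 with endothelial scaling, 5 with dim genes left out or array weights, 6 without YFP+ replicates 2 and 3 and 0 to 4 without single arrays. With the replicate number as a block, 0 partner genes (Ptprm 0.0857, Cldn7 0.058 and Rapgef3 0.102, as adjusted p) and none of the 10 genes were called, and 241 of all genes. Deviations of same-numbered arrays correlated at 0.133, 0.0104, 0.143 and 0.132 for numbers 1 to 4, and 3 of the 4 numbers correlated best with their own, a hint of shared origin in the data that number 2 does not share and the labels do not state; the unpaired fit was kept because not every pair was over 0.1. Where no cause is given, the cause was not tested. Jam3 and Ocln lie near background, where differences are understated.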
